A study of Mus musculus with 24 samples.

Results

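The 10 genes described here encode enzymes of amino acid synthesis and products of genes that the transcription factor ATF4 is known to induce: Asns, Phgdh, Psat1, Psph, Aldh18a1, Pycr1, Chac1, Trib3, Ddit4 and Sesn2. They were taken by name from the annotation in the scanner files, which gives them 15 of 39429 gene probes and which names 23899 genes after updating. All 10 had at least 1 probe that passed the filter on dim signals and are among the 9450 genes tested. Cells were CD8+ OT-I T cells carrying CD45.1, whose single transgenic receptor recognises an ovalbumin peptide. They were transplanted into female m-act OVA C57Bl/6 mice, in which a CAG-driven transgene expresses ovalbumin, in a model of lethal acute graft-versus-host disease. Recipients, 8 to 16 weeks old per the labels, had received 11 Gy of total body irradiation in 2 doses and were given bone marrow cells and splenocytes from OT-I donors, the remaining graft cells and the hosts being CD45.2. The groups were cells recovered 4 days later from peripheral blood, liver, lung and small intestine (5 arrays each), and the graft itself on day 0 (4 arrays). The labels describe positive magnetic selection on CD45.1 and 2 rounds of linear amplification from 300 pg of RNA, and nothing in them ties each sample to a separate animal. The p-values therefore reflect how these samples varied, which may be technical.

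Phgdh, Psat1 and Psph are the consecutive enzymes that turn the glycolytic intermediate 3-phosphoglycerate into serine, the carbon source of the folate cycle that proliferating T cells draw on for nucleotides. Asns transfers nitrogen from glutamine to aspartate to make asparagine, and Aldh18a1 and Pycr1 catalyse the first and last reactions of proline synthesis from glutamate. When amino acids run short or the endoplasmic reticulum is stressed, phosphorylated eIF2alpha favours translation of ATF4 mRNA. ATF4 protein, often paired with a C/EBP factor, then binds C/EBP-ATF response elements in its target genes, and mTORC1 is known to raise ATF4 in growing cells as well.

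The core of that element, written here as TGATGNAA and searched on both strands, was found in the promoter windows of 4 of the 10 genes, those of Asns, Chac1, Pycr1 and Trib3. Over the whole RefSeq table (GRCm38.p6, 250 bases before to 50 after each start site) it was found in 3.97% of 32851 windows. In Asns it lay from -23 to -16 on the strand of the gene, counted from the start site, and in Pycr1 from -103 to -96. It lay on the other strand in Chac1, from -193 to -186, and in Trib3, from 15 to 22 after the start. The letters occurred in neither of the windows listed for Psat1, nor in those of Phgdh, Psph, Aldh18a1, Ddit4 and Sesn2. The 4 windows with a match are printed to show its place, with the matched bases in capitals, and 1 window of Psat1, the gene with the second largest difference below, is printed for comparison.
Asns, chr6:7693160-7693459, minus strand: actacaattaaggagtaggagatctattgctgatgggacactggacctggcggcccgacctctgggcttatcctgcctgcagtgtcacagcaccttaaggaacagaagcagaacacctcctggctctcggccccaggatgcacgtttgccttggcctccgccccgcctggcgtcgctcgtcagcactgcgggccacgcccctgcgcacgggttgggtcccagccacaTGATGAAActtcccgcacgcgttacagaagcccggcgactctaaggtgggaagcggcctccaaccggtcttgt
Chac1, chr2:119350992-119351291, plus strand: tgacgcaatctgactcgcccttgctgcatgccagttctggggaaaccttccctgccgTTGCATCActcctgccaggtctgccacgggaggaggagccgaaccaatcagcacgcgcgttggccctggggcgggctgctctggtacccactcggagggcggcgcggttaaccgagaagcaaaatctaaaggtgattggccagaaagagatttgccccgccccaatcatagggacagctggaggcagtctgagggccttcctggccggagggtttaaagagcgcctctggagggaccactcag
Pycr1, chr11:120643699-120643998, minus strand: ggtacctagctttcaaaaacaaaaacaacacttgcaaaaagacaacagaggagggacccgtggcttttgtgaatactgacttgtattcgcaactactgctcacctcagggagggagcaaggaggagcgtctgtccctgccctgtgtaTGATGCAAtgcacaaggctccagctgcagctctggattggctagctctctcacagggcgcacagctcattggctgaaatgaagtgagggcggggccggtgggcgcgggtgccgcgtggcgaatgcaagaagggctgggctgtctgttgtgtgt
Trib3, chr2:152344011-152344310, minus strand: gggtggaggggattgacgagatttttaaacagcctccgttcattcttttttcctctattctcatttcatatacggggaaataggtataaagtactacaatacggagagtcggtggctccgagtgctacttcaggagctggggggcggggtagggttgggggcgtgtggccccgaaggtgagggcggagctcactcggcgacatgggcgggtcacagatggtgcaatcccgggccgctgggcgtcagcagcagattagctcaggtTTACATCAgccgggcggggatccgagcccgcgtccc
Psat1, chr19:15925010-15925309, minus strand: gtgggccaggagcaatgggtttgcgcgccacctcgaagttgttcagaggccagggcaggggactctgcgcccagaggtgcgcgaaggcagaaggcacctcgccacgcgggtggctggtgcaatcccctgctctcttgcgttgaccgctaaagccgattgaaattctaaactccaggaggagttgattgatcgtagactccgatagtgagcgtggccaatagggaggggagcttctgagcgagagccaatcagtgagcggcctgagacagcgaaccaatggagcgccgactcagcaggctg

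Values below are log2 levels, the log2 of the processed signal minus the array's 75th percentile over gene probes, so 0 is the 75th percentile of that array. Because the scale belongs to each probe, levels were compared between arrays for 1 gene and never between genes. A gene was called changed at a limma adjusted p (Benjamini-Hochberg over all 9450 genes) under 0.05. Between 22.6% and 38.6% of gene probes were well above background on an array, and the number of arrays limits the precision. All 7 T cell markers tested (Cd8a, Cd8b1 and Cd3e among them) were well above background on all 24 arrays. Of these, 3 were called higher on day 4 than in the graft and 0 lower. Their summed levels, on a linear scale, were 221 to 352 in the graft, 317 to 476 in blood and 374 to 507 in liver. In lung they were 280 to 450 and in intestine 149 to 587. Summed levels of 5 B and plasma cell markers, on a linear scale, ran from 1.80 to 63.6 on day 4 arrays against 191 to 258 in the graft, with Ms4a1 well above background on no day 4 array and on all 4 graft arrays. Those of 7 neutrophil and monocyte markers ran from 34.7 to 193 on day 4 arrays, against 372 to 466 in the graft. For 6 dendritic cell markers they ran from 14.3 to 201 on day 4 arrays, against 157 to 175 in the graft. These differences accompany every comparison with the graft, and their part in the results was not tested. Graft arrays shared 1 slide and 1 scan that held no day 4 array, so slide and group cannot be told apart there. Each day 4 slide held 1 array of each site.

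On day 4 the transcripts of Asns and of all 3 serine synthesis enzymes, and of the mTORC1 inhibitor Ddit4, were higher than in the graft at every site. Trib3 was also higher over the mean of the 4 sites, Pycr1 was lower, and Aldh18a1, Chac1 and Sesn2 were not called. That makes 6 of the 10 genes called higher and 1 lower, against 34.3% of all tested genes called higher and 19.1% lower. The median log2 difference was 1.30 over the 10 genes and 0.23 over all tested genes. In 5 of the 10 genes (Asns, Psat1, Phgdh, Psph and Ddit4) all 20 day 4 arrays lay above every graft array, which was so for 10.9% of tested genes. For Phgdh this holds on the probe that represents it and not on all of its probes. Counts were 6 higher and 1 lower in blood (35.2% and 21.2% of all tested genes), 6 and 0 in liver (34.4% and 16.1%), 5 and 0 in lung (25.8% and 11.6%) and 7 and 0 in intestine (22.1% and 12.8%). These 4 comparisons share the same graft arrays. The genes were chosen with earlier results of these data known, so setting them beside all tested genes is a description and no test. Asns passed the filter on dim signals only through day 4 groups, where it was high, so its calls add no support to any of these counts.

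**Figure D1:**
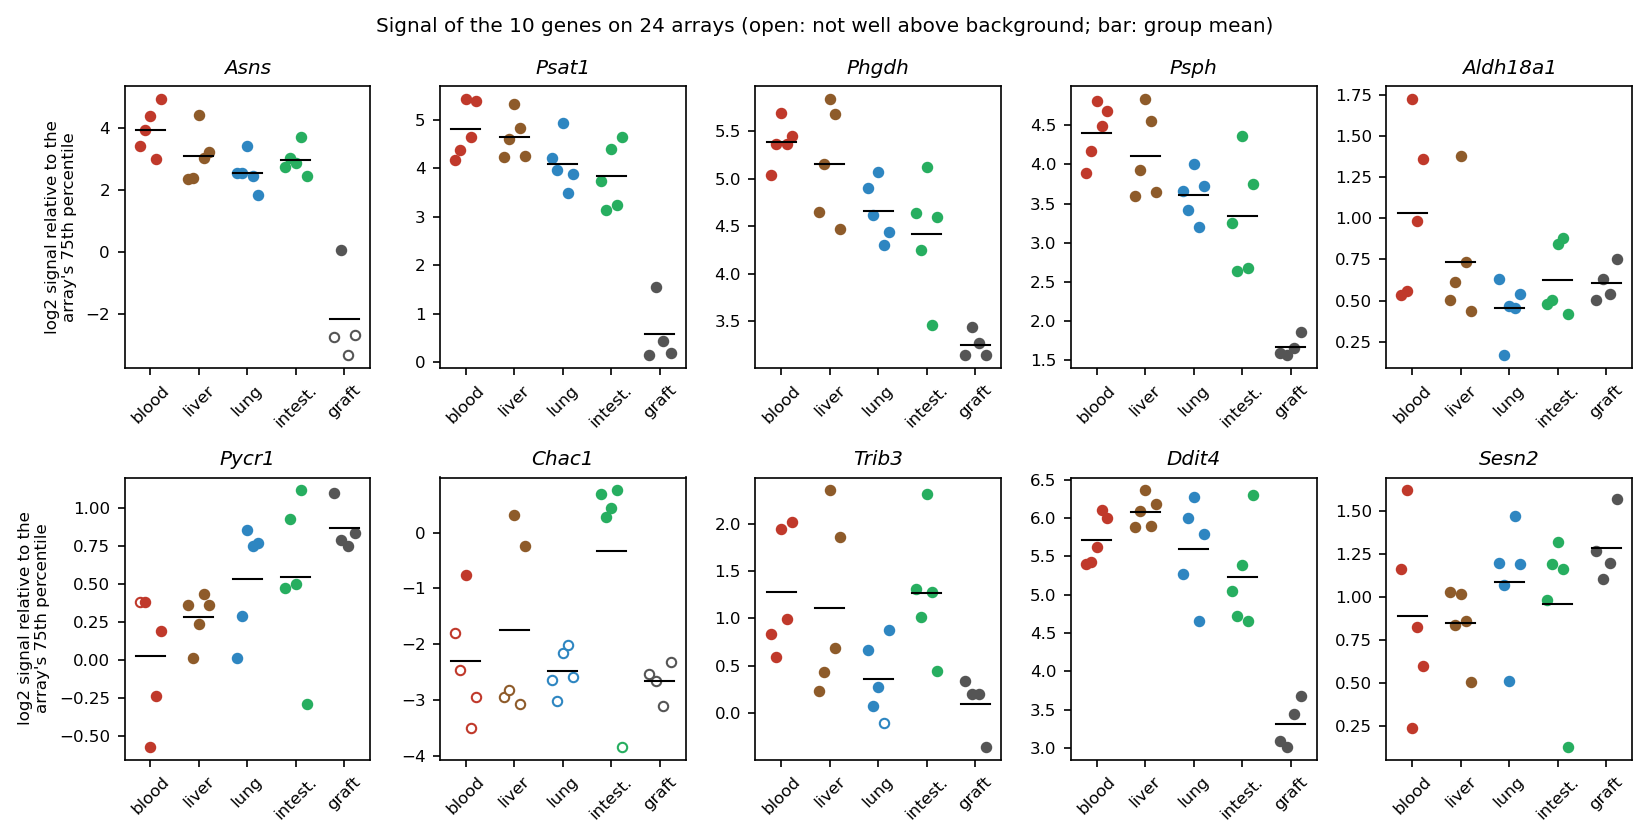
Log2 signal of each of the 10 genes relative to the array's 75th percentile (vertical axes, one range per gene) on every array of blood, liver, lung, intestine and graft (horizontal axes); points are arrays, open where the probe was not well above background, and bars are group means. For Asns, Psat1, Phgdh, Psph and Ddit4 all 20 day 4 arrays lie above the 4 graft arrays; Chac1 is well above background on 4 intestine arrays, 2 liver arrays and 1 blood array.

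Asns, asparagine synthetase, had the largest fitted difference of the 10 genes, except with normexp background correction, where Asns and Psat1 both stood at 3.22. Its log2 level was 3.42, 3.94, 4.41, 3.02 and 4.95 in blood and 2.37, 2.41, 4.44, 3.04 and 3.24 in liver. In lung it was 2.56, 2.57, 3.42, 2.45 and 1.85 and in intestine 2.74, 3.03, 2.88, 3.73 and 2.47, against -2.73, 0.09, -3.32 and -2.68 in the graft. The probe was well above background on all 20 day 4 arrays and, in the graft, on 1 of 4, so the other 3 graft levels are those of signals near background. Asns therefore passed the filter on dim signals only through day 4 groups, where it was high, and its p-values are not independent of that filter. The mean of the 4 sites exceeded the graft by 5.31 ± 0.448 on the log2 scale (SE, 20 against 4 arrays, limma adjusted p = 2.75e-09), a fitted value and not a measured fold. Site differences from the graft were 6.11 (blood), 5.26 (liver), 4.73 (lung) and 5.13 (intestine), all called. The size depended on how dim signals were treated, with 3.22 as the lowest value and 6.06 as the highest over 37 alternatives, all of them called. The array probe lies at chr6:7625171-7625228 of mm9, in the Asns mRNA by the annotation of the files.

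Psat1, the aminotransferase of the second step of serine synthesis, followed. Its level was 4.16, 4.37, 5.43, 4.64 and 5.39 in blood and 4.24, 4.59, 5.32, 4.82 and 4.24 in liver. Lung gave 4.20, 3.97, 4.92, 3.49 and 3.89 and intestine 3.73, 3.14, 4.40, 3.24 and 4.65, against 0.14, 1.54, 0.43 and 0.19 in the graft. No day 4 array came near the graft range, and graft 2 was the highest of its group, as it was for Asns. Summed erythroid markers were 291 in graft 2 and 9.59, 16.8 and 82.6 in graft 1, 3 and 4, and macrophage markers 45.8 in graft 2 and 12.7 to 21.0 in the others, and their part was not tested. The log2 difference over the 4 sites was 3.77 ± 0.311 (SE, limma adjusted p = 2.04e-09), rank 139 of 9450. A second Psat1 probe, at chr19:15991586-15991645 (mm9), was well above background on 3 of 24 arrays, all of day 4, and was not tested.

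Phgdh, the dehydrogenase that opens the pathway, had 3 probes, which are printed because they do not all lie in 1 place in the genome by the files' annotation (mm9). The probe with the highest signal, which represents the gene in the counts, is assigned to chromosome 17 through a cDNA clone, and the others to chromosome 3, where the RefSeq table places the gene.
Phgdh probe, chr17:53337968-53338027: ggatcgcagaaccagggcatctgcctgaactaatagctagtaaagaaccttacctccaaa
Phgdh probe, chr3:98117215-98117274: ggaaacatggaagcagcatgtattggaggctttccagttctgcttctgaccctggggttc
Phgdh probe, chr3:98117303-98117361: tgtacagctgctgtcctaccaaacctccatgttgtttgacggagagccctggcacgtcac

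On the chromosome 17 probe the level was 5.04, 5.36, 5.69, 5.36 and 5.45 in blood and 4.64, 5.15, 5.84, 5.68 and 4.47 in liver. It was 4.91, 4.61, 5.07, 4.30 and 4.44 in lung and 4.64, 4.25, 5.13, 3.46 and 4.59 in intestine, against 3.15, 3.44, 3.27 and 3.14 in the graft. The lowest day 4 array, intestine 4, exceeded the highest graft array by a small margin. The log2 difference was 1.65 ± 0.247 (SE, limma adjusted p = 7.64e-06). The chromosome 3 probes gave 1.36 ± 0.281 (adjusted p = 0.000331) and 2.57 ± 0.362 (adjusted p = 3.61e-06) with limma over 11277 probes. On the first of these, intestine 4 (3.08) lay below graft 2, 3 and 4 (3.47, 3.34 and 3.43), so day 4 and graft overlapped, and on the other the lowest day 4 array was intestine 4 (1.62), above the graft (0.56 to 1.28). Differences were positive on all 3 probes at every site, and 1 call was lost, that of the first chromosome 3 probe in lung (0.85, limma adjusted p = 0.0566). The chromosome 17 probe shares a run of 31 of its 60 bases with the probe of Gm6756, so signals of these transcripts may not be separate on it.

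Psph, the phosphatase of the last step, had levels of 3.89, 4.17, 4.80, 4.49 and 4.68 in blood and 3.59, 3.93, 4.84, 4.55 and 3.64 in liver. Its levels were 3.66, 3.42, 4.01, 3.20 and 3.73 in lung and 3.26, 2.63, 4.36, 2.68 and 3.75 in intestine, against 1.60, 1.57, 1.66 and 1.86 in the graft. The 4 graft values lay close together and below all others. The log2 difference was 2.19 ± 0.265 (SE, limma adjusted p = 4.87e-07), and the second probe gave 1.32 ± 0.217 (limma adjusted p = 2.64e-05).

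**Figure D2:**
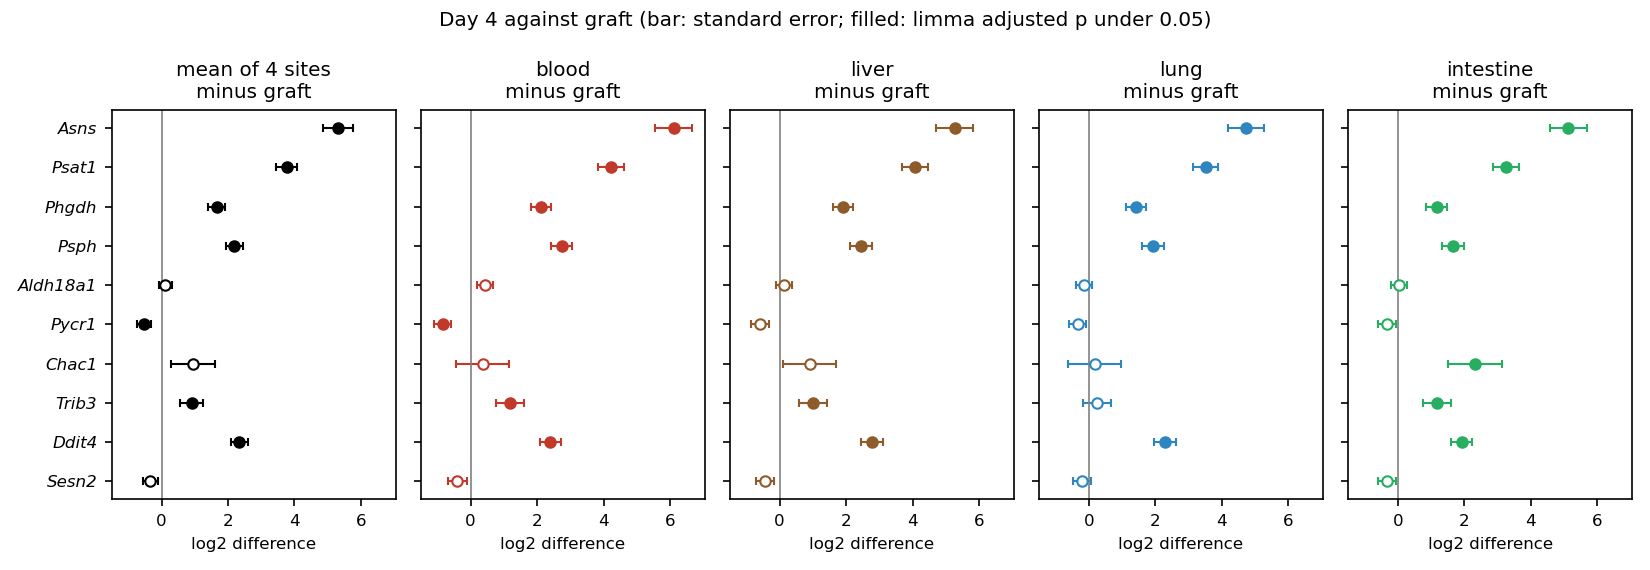
Log2 difference of each gene from the graft (horizontal axes) for the mean of the 4 day 4 sites and for blood, liver, lung and intestine; bars are standard errors, and filled points passed a limma adjusted p of 0.05. Asns, Psat1, Phgdh, Psph and Ddit4 are filled in all 5 panels, Chac1 in intestine and Pycr1 in the panels for the mean and for blood.

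Against the graft the proline pair did not rise with the serine enzymes. Aldh18a1, which makes the proline precursor from glutamate, ranged over 0.53 to 1.73 in blood, 0.44 to 1.38 in liver, 0.17 to 0.63 in lung and 0.42 to 0.88 in intestine, against 0.50 to 0.75 in the graft. The groups overlapped, and the log2 difference over the 4 sites was 0.11 (95% interval -0.30 to 0.51, limma adjusted p = 0.665), with a negative sign in 4 of 38 alternatives. Pycr1, the reductase of the last step, had levels of 0.38, 0.38, -0.57, -0.24 and 0.19 in blood and 0.37, 0.02, 0.24, 0.44 and 0.36 in liver. In lung they were 0.01, 0.29, 0.86, 0.75 and 0.77 and in intestine 0.48, 0.93, 0.50, 1.12 and -0.28, against 1.10, 0.79, 0.75 and 0.84 in the graft. All blood and liver arrays lay below the graft arrays, while lung and intestine overlapped them. The log2 difference was -0.84 in blood (limma adjusted p = 0.0102) and -0.52 ± 0.216 over the 4 sites (SE, limma adjusted p = 0.0462). The call over the 4 sites was lost in 16 of 37 alternatives, with adjusted p up to 0.147. Among these were the fits without any 1 graft array, and those without liver 1, 2 or 3, lung 1 or 2, blood 3 or 4, or intestine 1 or 3. The measured Pycr1 probe lies at chr11:120497302-120497361 (mm9), and the other one, at chr11:120501179-120501238, was well above background on 0 of 24 arrays, so the direction rests on 1 probe.

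Chac1, a glutathione-degrading enzyme induced through ATF4, was near background in most samples and detected mainly in intestine. Its level in intestine was 0.69, 0.28, 0.44, 0.76 and -3.84, the last below background. Of the other arrays, 3 were well above background: blood 3 at -0.77, liver 3 at 0.31 and liver 5 at -0.23. The 5 lung arrays (-3.02 to -2.01) and the 4 graft arrays (-3.11 to -2.33) were not well above background. In intestine Chac1 was at least 1.29-fold higher than in the graft (limma adjusted p = 0.0283), where the bound sets its mean over all 5 intestine arrays against the lowest signal that counts as detected. Chac1 passed the filter on dim signals only through intestine, the group where it was high, so this p is not independent of that filter and the call adds no support to the count of 7 in intestine. This call was lost in 11 of 37 alternatives, with adjusted p up to 0.0712, among them the fits without graft 1, 2 or 3 and without intestine 1, 2, 3 or 4. Intestine minus blood was not called (limma adjusted p = 0.0799) and was positive on 4 of 5 slides, with most blood signals near background. It passed in 4 of 38 alternatives, among them the fit without intestine 5, the array that ran the other way (adjusted p = 0.00323), and no support is drawn from that.

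Summed levels of 5 intestinal epithelial and Paneth cell markers were 76.2, 171, 6.07, 327 and 0.75 in intestine 1 to 5, and 14.7, 14.1, 1.43, 68.1 and 61.9 in lung 1 to 5, against at most 1.66 in blood and 5.37 in the graft. Those of 8 macrophage markers were 95.5, 124, 1.92, 2.91 and 1.41 in intestine 1 to 5 and reached 102 in lung 4, against 12.7 to 45.8 in the graft. Chac1 was not well above background in lung 4 or lung 5. Intestine 3, low in both, had Chac1 at 0.44, and intestine 5, also low in both, had it below background. Whether these markers account for part of the Chac1 signal was not tested.

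Trib3, a pseudokinase that restrains AKT and ATF4, had levels of 0.84, 0.59, 1.95, 0.99 and 2.01 in blood and 0.23, 0.43, 2.35, 0.68 and 1.86 in liver. It stood at 0.67, 0.07, 0.27, -0.11 and 0.88 in lung and at 1.31, 1.01, 2.31, 1.28 and 0.45 in intestine, against 0.34, 0.20, 0.19 and -0.36 in the graft. Blood and intestine lay above every graft array, and lung overlapped the graft. The log2 difference was 1.18 in blood (limma adjusted p = 0.0211), 1.02 in liver (0.0486), 1.18 in intestine (0.0334) and 0.26 in lung (0.65), and 0.91 ± 0.344 over the 4 sites (SE, adjusted p = 0.0301). The blood call was lost in 7 of 37 alternatives (adjusted p up to 0.245), among them the fits without blood 3, blood 5 or graft 4, and the intestine call in 8 (adjusted p up to 0.112), among them those without graft 2, 3 or 4 and without intestine 1 or 3. The call over the 4 sites was lost in 7 of 37 alternatives, among them both scalings to probes detected on all arrays and the fits without graft 2, graft 3 or graft 4 (adjusted p = 0.0568, 0.0557 and 0.117). The liver call was lost in 22 of 37 alternatives, among them the fits without liver 3 and without liver 5 (adjusted p = 0.153 and 0.115). Lung minus blood was -0.92 (limma adjusted p = 0.115), so a difference of lung from blood did not pass the test.

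Ddit4 and Sesn2 both restrain mTORC1, Ddit4 through the TSC complex and Sesn2 as a leucine sensor, and they differed here. Ddit4 had levels of 5.40, 5.42, 5.62, 6.10 and 5.99 in blood and 5.88, 6.09, 6.36, 5.89 and 6.18 in liver. Lung gave 5.27, 5.99, 6.27, 4.65 and 5.79 and intestine 5.05, 4.72, 5.39, 4.66 and 6.30, against 3.09, 3.01, 3.44 and 3.68 in the graft. The difference was 2.35 ± 0.263 on the log2 scale (SE, limma adjusted p = 1.66e-07), and day 4 and graft arrays did not overlap. Sesn2 ranged over 0.24 to 1.62 in blood, 0.51 to 1.03 in liver, 0.51 to 1.47 in lung and 0.13 to 1.32 in intestine, against 1.11 to 1.57 in the graft. Its log2 difference was -0.34 (95% interval -0.80 to 0.12, limma adjusted p = 0.204), and it was called lower in 4 of 38 alternatives, those with quantile normalisation, the deposited log2 values and both scalings to probes detected on all arrays. All 5 liver arrays lay below the graft arrays, with a difference of -0.43 that was not called (limma adjusted p = 0.189).

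Between day 4 sites few differences of the 10 genes were called. With 5 arrays a site, a difference that was not called need not be small. Asns in lung minus blood was -1.38 (95% interval -2.45 to -0.31) and was not called. Of 60 gene and pair combinations 2 were called, both lower in intestine than in blood: Phgdh by -0.97 (95% interval -1.56 to -0.38, limma adjusted p = 0.0327) and Psph by -1.07 (95% interval -1.70 to -0.44, limma adjusted p = 0.0292). In that comparison 13.3% of all tested genes were called and 11.5% were lower, so 2 of 10 is near the background. Shares of all tested genes called in the other pairs were 0% for liver minus blood and intestine minus liver, 1.45% for lung minus blood, 0.455% for lung minus liver and 0.381% for intestine minus lung. Psat1 had a difference of -0.96 that was not called (limma adjusted p = 0.0716). Since each slide holds 1 array of each site, the comparison was also made within slides. Intestine lay below blood on 5 of 5 slides for each of the 3 enzymes, by -1.91 to -0.40 for Phgdh, -1.40 to -0.43 for Psat1 and -1.81 to -0.44 for Psph. Aldh18a1 was also lower on 5 of 5 slides, by -0.95 to -0.05. The median difference over all tested genes was -0.23, and the share of genes lower on every slide was not counted. With slide as a block over the day 4 arrays the adjusted p-values were 0.0441 for Phgdh, 0.0421 for Psat1 and 0.0295 for Psph (limma). In that fit 9.57% of all tested genes were called. Over the day 4 arrays without the block the adjusted p-values were 0.0574, 0.0837 and 0.0525 (limma), and these genes were not called. Other probes of the same genes gave -1.02 (limma adjusted p = 0.0434) and -1.17 (0.0634) for Phgdh and -0.93 (0.0236) for Psph.

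Both calls depended on single arrays. Without intestine 4 the differences were -0.73 for Phgdh and -0.91 for Psph (limma adjusted p = 0.107 and 0.0897), and both calls were also lost without intestine 2, blood 3, blood 4 or blood 5, that of Phgdh without blood 2 and that of Psph without intestine 1. Epithelial marker sums differed between the intestine arrays as well. Intestine 1, 2 and 4, with epithelial sums of 76.2, 171 and 327, had Psph at 3.26, 2.63 and 2.68, and intestine 3 and 5, with sums of 6.07 and 0.75, had it at 4.36 and 3.75. Phgdh stood at 4.64, 4.25 and 3.46 in intestine 1, 2 and 4 and at 5.13 and 4.59 in intestine 3 and 5. It too was lowest in intestine 2 and 4, while intestine 1 and 5 were nearly equal. T cell markers summed to 254, 167 and 149 in intestine 1, 2 and 4, against 587 and 418 in intestine 3 and 5. Their part in the difference was not tested, and fewer T cells in a sample cannot be told apart from less of a transcript in each cell.

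**Figure D3:**
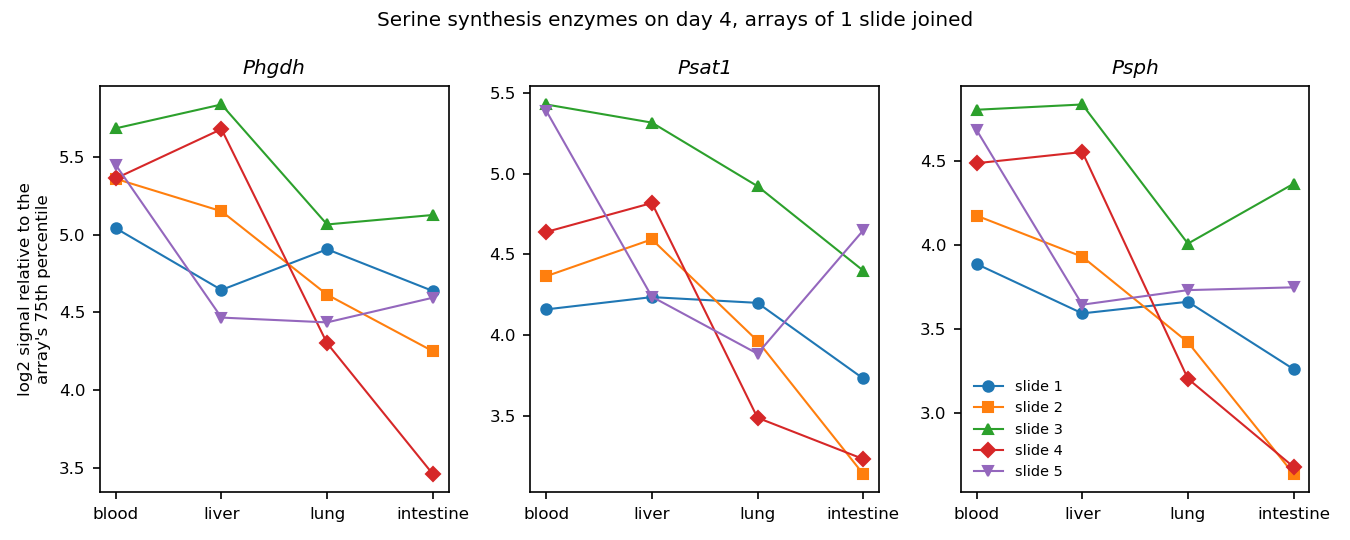
Log2 signal of Phgdh, Psat1 and Psph relative to the array's 75th percentile (vertical axes) in blood, liver, lung and intestine on day 4 (horizontal axes); each line joins the 4 arrays of 1 slide. On all 5 slides the intestine point of each gene lies below the blood point, with the widest gaps for Phgdh and Psph on slide 4.

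By site means Psat1, Phgdh and Psph shared the order blood, liver, lung and intestine from high to low. Neighbours in that order did not differ beyond their spread (limma adjusted p of at least 0.329 for each of these pairs). The order was that of 19.8% of all tested genes and of 32.5% of genes called higher on day 4. Ddit4 was highest in liver and lowest in intestine, and Asns lowest in lung, where its difference from blood was -1.38 (limma adjusted p = 0.106). Trib3 was lowest in lung among the sites.

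Across the 20 day 4 arrays, which share slides, scaling and the composition of the samples, the 3 serine enzymes varied together. Pearson r was 0.93 for Psat1 with Psph (rho 0.91), 0.93 for Phgdh with Psph (rho 0.93) and 0.86 for Psat1 with Phgdh (rho 0.85), and after site means were removed it was 0.89, 0.87 and 0.77. Leaving out the 2 arrays farthest from the median gave 0.90, 0.91 and 0.85. For Asns r was 0.46 to 0.54 with the serine enzymes (rho 0.44 to 0.49), 0.74 with Aldh18a1 (rho 0.52) and 0.62 with Trib3 (rho 0.58). Without the 2 farthest arrays these fell to 0.28 to 0.30, 0.59 and 0.43, and differences between them were not tested. With the serine enzymes r was 0.55 to 0.65 for Aldh18a1, 0.54 to 0.74 for Ddit4 and -0.65 to -0.59 for Pycr1. For Trib3 it was 0.31 to 0.44 and for Sesn2 -0.58 to -0.23. Ddit4 and Sesn2 had r = -0.61 (rho -0.71).

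Among 8433 genes, those most like a member over these 20 arrays were listed as a description. Only members well above background on at least 12 of the 24 arrays were used, so Chac1 was left out. The 3 closest to Psat1 were Nop10 (r = 0.95), Vdac3 (0.95) and Mrpl15 (0.95), and to Psph Cdk4 (0.97), Coa6 (0.95) and Mrpl43 (0.95). For Phgdh they were Gm6756 (0.98), whose probe shares bases with that of Phgdh, Trnau1ap (0.95) and 1190007I07Rik (0.95). Asns was closest to Mrps18b (0.81), the isoleucyl-tRNA synthetase gene Iars (0.77) and Jagn1 (0.76), and Aldh18a1 to Pgd (0.88), Nudt19 (0.86) and Jagn1 (0.85). Pycr1 was closest to Tet3 (0.95), Nkx2-4 (0.95) and Lin7b (0.94), and Ddit4 to Ublcp1 (0.89), Abcb10 (0.85) and Bzw1 (0.85). Lactb2 (0.76) was among the 3 closest to Trib3, and the closest to Sesn2 were Frmd4a (0.74), C130074G19Rik (0.72) and Lhfpl4 (0.71).

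The surrounding pathway was read from 8 lists of 139 entries in all, of which 94 were tested. Over the mean of the 4 sites 45 were called higher than in the graft and 9 lower, where 34.3% and 19.1% of all tested genes were. Scaling moved this split, to 31 higher and 22 lower after centring on the median signal of probes detected on all arrays, a setting that moved the median of all genes to -0.32 on the log2 scale. The direction of each tested gene named from the lists by the rule given under processing was the same under every alternative run for it. Calls were lost in 4 of 38 alternatives for Eif2b1 and for Eif2b4 (adjusted p up to 0.128 and 0.23), in 2 for Lamtor1 and Nprl2, and in 1 for Atf5 and Ahcy. The Ahcy difference was 0.39 when its probes were averaged. List genes well above background on few or no graft arrays, Gldc, Oat, Cbs, Iars, Rheb and Rragc among them, passed the filter on dim signals only through day 4 groups. Their calls add no support to the list counts. The lists were also chosen with earlier results of these data known, so counts beside the shares over all genes are a description.

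Of 9 tested genes for serine, glycine and folate-bound carbon, 6 were higher and 0 lower (median log2 difference 0.96, against 0.23 over all genes), and 4 and 2 under that centring. Gcsh, of the glycine cleavage system, was higher by 2.58 ± 0.218 (SE, limma adjusted p = 2.67e-09), and Gldc of the same system at least 22-fold, being well above background on 0 of 4 graft arrays and 19 of 20 day 4 arrays. The mitochondrial folate enzymes Mthfd1l and Mthfd2 were higher by 2.30 and 1.08. Of 12 genes for glutamate, aspartate, proline and alanine, 6 were higher and 0 lower (median 0.74), a split of 5 and 4 under the same centring. The aspartate aminotransferases Got2 and Got1 were higher by 2.75 and 1.79, and Asnsd1 by 1.98. Oat, which links ornithine to proline, was called higher while well above background on 10 day 4 arrays and on 0 graft arrays, so no size is given. Of 12 genes for cysteine, arginine and branched-chain amino acids, 6 were higher and 0 lower (median 0.75), or 4 and 2 under that centring, with Ahcy at 2.21, Cbs at 1.75, the ornithine decarboxylase gene Odc1 at 1.73 and Bckdha at 1.36.

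Of 16 eIF2 kinases, eIF2 and eIF2B subunits, phosphatase subunits and ATF4-related factors, Atf4 and Atf5 included, 5 were higher and 3 lower, near the shares over all genes, with a median log2 difference of 0.01, and with 2 higher and 6 lower under either scaling to probes detected on all arrays. Atf4 itself averaged 6.23 on day 4 and 6.76 in the graft, a difference of -0.53 ± 0.222 (SE, limma adjusted p = 0.0468) whose call was lost in 21 of 38 alternatives, with adjusted p up to 0.302. Single arrays decided that call, among them graft 2, graft 3 and graft 4 (adjusted p = 0.0797, 0.159 and 0.109 without each). Atf5, a related factor, was lower by -0.97 (limma adjusted p = 0.011). Eif2s1, which encodes eIF2alpha, was higher by 2.99, and the eIF2B subunits Eif2b5, Eif2b1 and Eif2b4 by 1.28, 0.91 and 0.74. The ATF4 partner and target Ddit3 was well above background on 0 of 24 arrays.

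Of 14 other reported ATF4 targets, 10 were higher and 1 was lower (median 1.33), with 8 and 1 under either scaling to probes detected on all arrays. Most of the 10 were tRNA synthetase genes (Cars, Nars, Wars, Aars, Gars, Sars and Iars), and the others were Eif4ebp1, Jdp2 and Xpot. Gdf15, Map1lc3b and Atg5 were not called. The tRNA synthetase genes Wars, Aars and Gars were higher by 2.21, 1.85 and 1.33, and Iars at least 4.89-fold, with 0 of 4 graft arrays well above background. Gadd45a, a stress gene, was lower by -0.73 ± 0.210 (SE, limma adjusted p = 0.00582). Of 7 amino acid transporters 5 were higher and 1 was lower (median 1.34), with 4 and 1 under either scaling to probes detected on all arrays. In lung minus graft 1 was higher, 1 lower and 5 not called (median 0.71). Of all tested genes 25.8% were higher there and 11.6% lower (median 0.18). In lung minus blood and in lung minus liver 0 of the 7 transporters were called. The glutamine transporters Slc38a1 and Slc38a2 were higher by 2.27 and 1.38 and the arginine transporter Slc7a1 by 1.35. The neutral amino acid transporter Slc1a4 went the other way, averaging 2.47 on day 4 and 6.34 in the graft (-3.86 ± 0.378, SE, limma adjusted p = 2.48e-08), with 20 of 20 day 4 arrays below every graft array.

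Of 14 genes of mTORC1 and its amino acid sensing, 5 were higher and 3 lower (median 0.30), near the shares over all genes, and under centring on the median of probes detected on all arrays 2 were higher and 5 lower (median -0.24). The activator Rheb was at least 2.02-fold and the GTPase gene Rragc at least 1.09-fold higher, both with 0 of 4 graft arrays well above background. Of 20 day 4 arrays, Rheb was well above background on 16 and Rragc on 12. Lamtor1 was higher by 0.89. Another subunit of the same lysosomal complex, Lamtor2, was lower by -1.45 on 20 of 20 day 4 arrays (limma adjusted p = 8.01e-07), and the inhibitory subunit Nprl2 by -0.54. Of 10 markers of other pathways that induce Ddit4 or Sesn2, 2 were higher and 1 was lower (median 0.55). Fkbp5, a glucocorticoid target, was higher by 3.72 ± 0.356 (SE, limma adjusted p = 1.8e-08). Tsc22d3 and Per1, glucocorticoid targets of the same list, were not called (0.58 and 0.53, limma adjusted p = 0.148 and 0.348). The NRF2 target Txnrd1 was higher by 2.62, and Hmox1, also an NRF2 target, was lower by -1.94. None of the hypoxia markers of the list was among the tested genes.

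**Figure D4:**
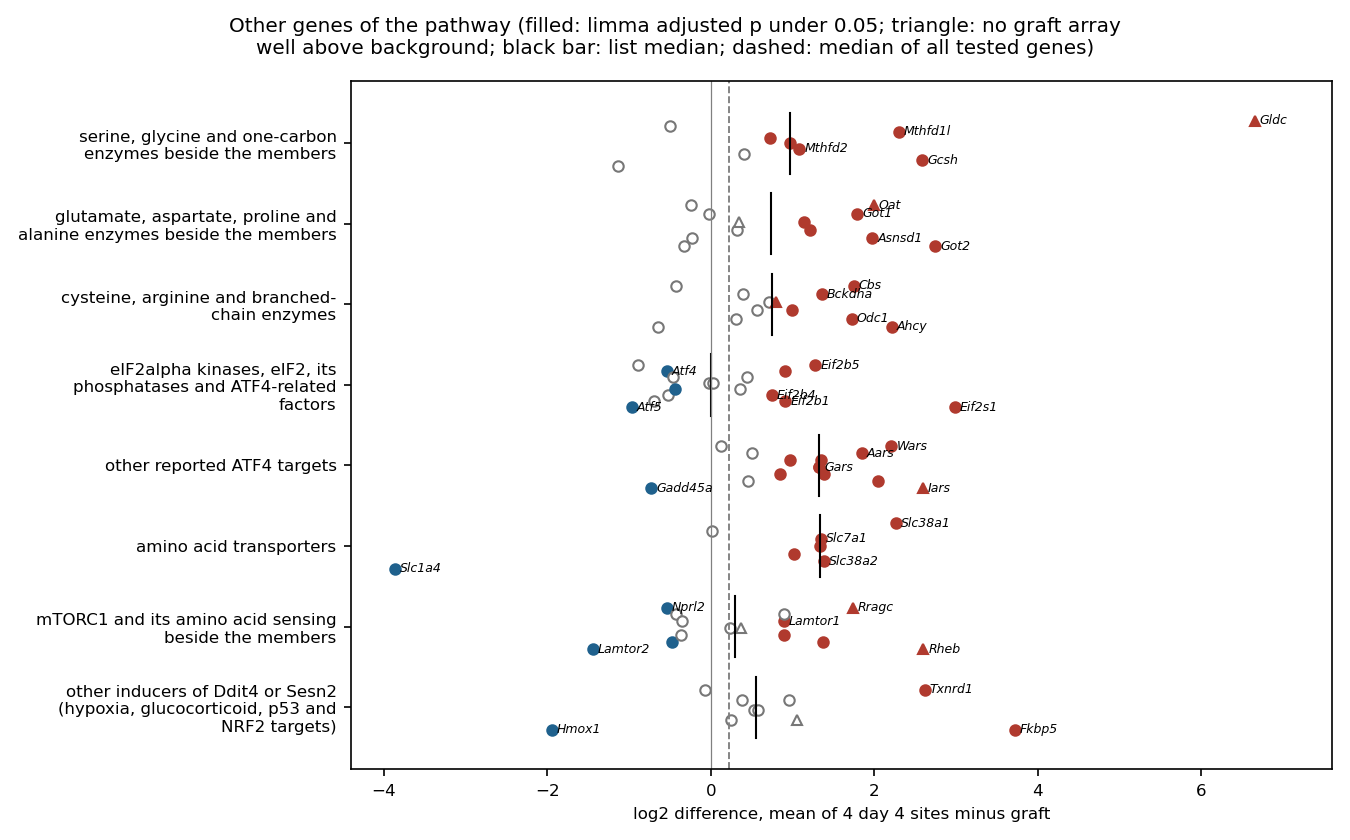
Log2 difference between the mean of the 4 day 4 sites and the graft (horizontal axis) for the tested genes of the 8 lists (vertical axis); filled points passed a limma adjusted p of 0.05, triangles had no graft array well above background, so that their fitted position is not a measured fold, black bars are list medians, and the dashed line is the median of all 9450 genes. Slc1a4 and Hmox1 lie far to the left of their lists and Gldc and Fkbp5 far to the right.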

How the data were processed

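RNA from 24 samples was measured on one-colour Agilent arrays. The deposited scanner files hold, per the file headers, background-subtracted spot intensity from Agilent Feature Extraction (version 10.7 per the submitters' processing notes). A deposited table of the authors' log2 values served as an alternative. Set against the scanner values it held quantile-normalised log2 signals centred on each probe's median.

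Processed signals were taken as log2 after control spots and non-uniform spots were left out and spots of a probe averaged, and each array's 75th percentile over gene probes was subtracted. Of 39429 gene probes, 27591 were named by accession through the RefSeq gene table, 3493 by symbol and 393 by synonym, 1527 under the files' own name, and 6425 were unnamed. A probe was tested where it was well above background on all, or all but 1, of the arrays of a group. The probe with the highest mean represented its gene, which left 9450 genes. One limma model (3.58.1, R 4.3.3) over the 5 groups gave 11 comparisons, each adjusted by Benjamini-Hochberg over all genes and called at 0.05. The procedure was tested on simulated data.

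Of each list, up to 4 called genes with the smallest adjusted p were named, up to 2 called genes against the list's direction, and Atf4 and Ddit3 in any case. Some further list genes were named after their values were seen, to show which genes a count rests on. The members and the lists were chosen with earlier results of these data known. Alternatives were background correction, scaling, filter, probe choice, naming, array weights, slide blocks and leaving out arrays. The other probes of Phgdh and Psph were added as alternatives after the data were seen. Day 4 arrays of the same replicate number share a slide. The correlation of their deviations from group means ran from -0.37 to 0.56 over 30 pairs (median 0.15), with 18 over 0.1. By mean correlation 8 of 20 day 4 arrays were closest to the arrays of their own number. The main fit did not take the numbers as pairs, and these values do not settle whether they are. One marker gene and some genes of like pattern are not reported here.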

Additional observations from a re-analysis of the deposited data

Results flagged for a closer look

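Chac1 in intestine 5 (log2 level -3.84) and Sesn2 in intestine 5 (0.13) lay apart from the other 4 intestine arrays. They are 2 of 50 sets of a gene and a group examined for such a gap, and chance marks about 1 set in 20. Intestine 5 had the lowest summed epithelial markers of the intestine arrays (0.75). Phgdh (log2 difference -0.97, limma adjusted p = 0.0327) and Psph (-1.07, limma adjusted p = 0.0292) differed between intestine and blood by a test of the difference itself, with intestine lower on 5 of 5 slides. Intestine was also lower on 5 of 5 slides for Psat1 and Aldh18a1, which were not called.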

How the results depend on the processing

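The differences of Asns, Psat1, Phgdh, Psph and Ddit4 over the mean of the 4 sites kept their direction and their call in every alternative run. Psat1 ranged from 3.22 to 4.09, Ddit4 from 1.80 to 2.48, Psph from 1.65 to 2.26 and Phgdh from 1.11 to 1.86 on the log2 scale. With only probes detected on all 24 arrays, 6 of the 10 genes remained for testing, of which 4 were called over the mean and 16 calls were made over the 4 sites, against 7 and 25. The 2 calls between day 4 sites became 6 with normexp background correction, 0 after scaling to the 75th percentile and 1 after scaling to the median of probes detected on all arrays, 0 with no filter on dim probes, 15 with array weights and 0 without lung 4 and intestine 4. Leaving out 1 array gave 0 to 9 such calls, with 4 without intestine 3 and 9 without intestine 5. Chac1 in lung minus graft was 0.17 and not called, and -1.53 and called with normexp (limma adjusted p = 0.0418), where no array was well above background. Fitting the replicate number as a block left 6 of the 10 genes called over the mean, Pycr1 being lost (limma adjusted p = 0.0826), left 2 calls between sites, and called 3114 genes higher and 1737 lower. Slide as a random block left 5, without Trib3 and Pycr1. Share of calls that were higher, over all genes, was 64.3%, and it was 71.0% with normexp, 50.2% with quantile normalisation and with the deposited log2 values, and 40.8% and 36.4% after scaling to the 75th percentile and median of probes detected on all arrays. The corresponding splits of the 94 list genes were 45 higher and 9 lower, 45 and 5, 37 and 14 (quantile), 32 and 18, and 31 and 22. The cause of these changes was not tested. Signals near background limit Asns in the graft and Chac1 in most samples.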

Other observations

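Between intestine and blood, 15 of the 94 tested list genes were called, 3 higher and 12 lower, against 1.79% of all genes called higher and 11.5% lower. The mitochondrial folate enzymes Shmt2 (log2 difference -0.99, limma adjusted p = 0.0126) and Mthfd1l (-1.04, limma adjusted p = 0.0343) were lower, as was Mat2a, which makes S-adenosylmethionine (-1.45, limma adjusted p = 0.0175). Ppp1r15a, the eIF2alpha phosphatase subunit, was higher by 0.92 (limma adjusted p = 0.0336), with means of 5.44 in intestine and 4.52 in blood. Cdkn1a, a p53 target, was higher by 2.34 (limma adjusted p = 0.0328). Srxn1, an NRF2 target, was well above background on 4 of 5 intestine arrays and on 0 of 5 blood arrays and passed the filter on dim signals only through intestine, so its call is no independent support. These genes were picked after their values were seen, and the part that the epithelial markers of intestine 1, 2 and 4 play in them was not tested.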
